A study of Mus musculus with 18 samples.

Results

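The soleus comparison set muscle with an induced loss of EglN1 against muscle without it, across genes. It rests on the 6 arrays whose titles name the soleus, of 18 arrays in the series, 3 of them labelled KO and 3 labelled WT. KO mice carried a floxed EglN1 locus together with a Cre recombinase of skeletal muscle, and WT mice carried the same recombinase with an unaltered locus. Both groups had been crossed back to C57BL/6, ate chow freely and were given tamoxifen for 3 days before harvest, the drug that switches the recombinase on. The labels used here state neither the age of the mice nor the promoter of the recombinase. They also do not say how fully the fibres and other cells of the muscle lost the gene. RNA of whole muscle was read on Affymetrix whole-transcript arrays, and the values are log2 signals, in which a difference of 1 is a doubling. The 6 quadriceps arrays, 3 KO and 3 WT, carry the same label numbers as the soleus arrays and are used for the estimate of spread and for a test of whether a change differed between the muscles.

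EglN1, also called PHD2, is an enzyme that uses oxygen to hydroxylate prolines in the hypoxia-inducible factors (HIF), whose alpha subunits are then recognised by the von Hippel-Lindau protein and destroyed. When it is lost, HIF can accumulate and switch on genes of glycolysis, angiogenesis, iron handling and mitochondrial turnover. The soleus is a postural calf muscle rich in slow, oxidative fibres, which carry the myosin encoded by Myh7, and in fast oxidative fibres, which carry Myh2. Fast glycolytic fibres, which carry Myh4, are scarce in it and abundant in the quadriceps.

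The arrays bore out their tissue label. Myh7, the slow myosin, read 13.36, 13.40 and 13.39 in KO soleus and 13.42, 13.30 and 13.47 in WT soleus, against 6.60 to 9.39 in the quadriceps arrays. The median signal of the 6 soleus arrays lay between 6.68 and 6.74, and within a group the correlation of arrays over all probe sets was r = 0.991 to 0.994. A gene was tested if its mean over the 12 muscle arrays reached 6.54, the 40th percentile of all 19938 genes, which left 11963 genes. A gene is said to have risen or fallen only at a Benjamini-Hochberg adjusted p under 0.05 in limma.

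Egln1, the deleted gene, read 11.03, 11.07 and 11.12 in KO soleus and 11.29, 11.22 and 11.31 in WT soleus. The KO arrays were all lower than the WT arrays, and the gap was small beside the level. The difference was -0.20 on the log2 scale (95% interval -0.34 to -0.06, limma adjusted p = 0.399) and did not pass the test over all genes. The labels do not say which exons were deleted, and 1 value stands for the whole transcript. Fibres and other cells are read together, and how many of them lost the gene was not measured. The array is thus a limited check of the genotype. The other prolyl hydroxylases and the HIF subunits moved little: Egln2 differed by -0.13 (adjusted p = 0.641), and Hif1a and Epas1, which encode the alpha subunits, by 0.06 and 0.01 (0.917 and 0.990). Egln3, itself a HIF target, read 11.44, 11.08 and 11.73 in KO soleus against 11.42, 11.67 and 11.52 in WT soleus, a difference of -0.12 (limma adjusted p = 0.963). Its groups overlapped, as did those of Vegfa, the angiogenic growth factor (difference -0.01). Of 9 tested genes of oxygen sensing, none passed; Egln1 and Egln2 had an unadjusted p under 0.05 on the lower side and P4htm, a transmembrane prolyl hydroxylase, on the higher side (0.19).

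In soleus, 22 of 11963 tested genes changed (0.184%), 15 of them higher in KO (0.125%) and 7 lower (0.0585%). The KO and WT arrays did not overlap for any of the 22, a separation that 12.7% of all tested genes showed in either direction. At an unadjusted p under 0.05 the count was 907 (7.58%), 495 higher (4.14%) and 412 lower (3.44%), and the median difference over all tested genes was 0.0013. A fold above 2 was reached by 3 of the 22 (Gdpd3, Serpina3n and Abhd1), and the middle of the 22 had a size of 0.64 on the log2 scale. With the 6 soleus arrays alone 8 genes passed, all of them among the 22: Abhd1, Def8, Gdpd3, Kif5b, Mir30c-2, Ppwd1, Tmem37 and Trappc2l. The other 14 did not pass without the quadriceps arrays. Their SE was not always narrower in the 12-array fit: that of Phyhip was 0.10 with 12 arrays and 0.07 with the 6 soleus arrays. The count also rested on single arrays: it was 6 without KO replicate 1, 9 without KO replicate 2, 39 without KO replicate 3 and 10 without WT replicate 1. Abhd1, Def8, Gdpd3, Kif5b, Mir30c-2 and Trappc2l kept their call whichever soleus array was left out, and the other 16 lost it without at least 1 array.

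**Figure D1:**
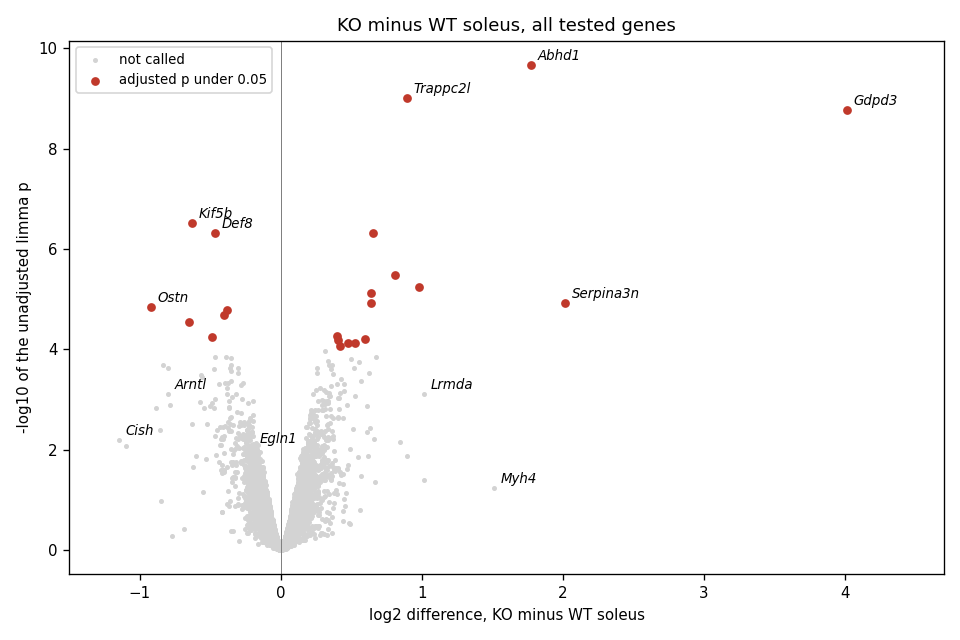
Log2 difference, KO minus WT soleus (horizontal axis), against -log10 of the unadjusted limma p (vertical axis) for the 11963 tested genes, with the 22 called genes in red. Gdpd3, Abhd1 and Trappc2l stand highest or farthest out, while Egln1, Arntl, Cish, Lrmda and Myh4 are named among the genes that were not called.

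The widest rise was that of an enzyme of lysophospholipids. Gdpd3, a lysophospholipase D of the glycerophosphodiester phosphodiesterase family, read 9.04, 9.90 and 9.33 in KO soleus and 5.15, 5.09 and 6.00 in WT soleus. All WT arrays lay below the level of 6.54 and all KO arrays far above it, so the gene was near the floor of the array in WT muscle. It rose at least 7.42-fold, the distance of the KO mean from that level, with a fitted difference of 4.01 (SE 0.26, limma adjusted p = 6.87e-06). Abhd1, which has an alpha/beta-hydrolase fold, read 8.71, 8.96 and 8.62 in KO soleus and 6.98, 6.83 and 7.16 in WT soleus. The gap between its groups was several times their spread, and the rise was 3.42-fold (log2 1.77, SE 0.10, limma adjusted p = 2.57e-06). Gdpd3 and Abhd1 were the called genes among 9 tested members of a list of lysophospholipid phosphodiesterases and related enzymes, against 0.184% of all tested genes called. The list was chosen with these changes known, the other 7 members did not pass, and its median was -0.01. Gdpd1, the relative that also acts on lysophospholipids, differed by 0.15 (adjusted p = 0.811), Gdpd5 by -0.14 (0.848) and Gde1 by -0.04 (0.980), while Gdpd2 and Gdpd4 were below the level of the test.

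The promoter of Gdpd3 is shown because no gene changed more and because HIF binds a short core, ACGTG or GCGTG, in its target genes. The promoter of Adm, an established HIF target described below, is given for comparison. Each window is the 250 bases before the start of the gene, from RefSeq (GRCm38.p6), 5′ to 3′ on the strand of the gene, with the core in capitals on either strand (CACGT and CACGC are the same cores read on the other strand).
Gdpd3, chr7:126766164-126766413, plus strand: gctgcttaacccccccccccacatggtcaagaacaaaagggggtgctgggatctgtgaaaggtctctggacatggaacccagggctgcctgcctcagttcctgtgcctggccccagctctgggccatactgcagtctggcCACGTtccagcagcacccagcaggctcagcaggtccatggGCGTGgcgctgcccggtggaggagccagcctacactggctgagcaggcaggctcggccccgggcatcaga
Adm, chr7:110627407-110627656, plus strand: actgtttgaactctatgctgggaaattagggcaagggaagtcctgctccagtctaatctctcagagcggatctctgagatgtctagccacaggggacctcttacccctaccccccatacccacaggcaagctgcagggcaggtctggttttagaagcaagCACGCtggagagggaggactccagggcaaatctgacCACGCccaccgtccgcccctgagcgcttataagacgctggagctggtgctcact
Both windows held 2 cores. The core was present before 60.4% of the 9530 tested genes with a window and before 41.5% of all 27025 genes of the table, so its presence is common. Among the called genes it was found in 2 of 11 higher genes with a window (G0s2 and Gdpd3) and in 3 of 3 lower genes (Def8, Efr3b and Serinc2). It was found in 23 of 23 HIF targets with a window. A gene with several windows was counted if any of them held the core, and the sets differed in this. The 3 lower genes had 6 windows, the 11 higher genes 11, the 23 HIF targets 37 and the 9530 tested genes 12156. A match is a description of the letters and not a measured binding site.

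Serpina3n, a secreted inhibitor of serine proteases that belongs to the acute-phase response, read 10.13, 10.04 and 8.997 in KO soleus and 7.53, 8.14 and 7.45 in WT soleus. The groups did not overlap, and KO replicate 3 stood a full log2 unit below the other KO arrays. The rise was 4.04-fold (log2 2.01, SE 0.29, limma adjusted p = 0.0131), and the call was lost without KO replicate 1, KO replicate 2, WT replicate 1 or WT replicate 3 (adjusted p up to 0.0865) and with the 6 soleus arrays alone (0.124). Markers of other cells dipped in the same KO array. The mean level of 10 fibroblast and matrix genes was 10.08, 10.36 and 9.30 in KO soleus and 9.88, 9.85 and 10.03 in WT soleus, and that of 9 macrophage and leukocyte genes 7.51, 7.78 and 7.22 in KO soleus and 7.53, 7.51 and 7.54 in WT soleus. Whether these cells had a part in the value of Serpina3n was not tested. In whole muscle, more cells of a type and more RNA per cell cannot be told apart.

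Trappc2l, part of the TRAPP complexes, which tether vesicles on their way between membranes, read 10.77, 10.72 and 10.67 in KO soleus and 9.89, 9.80 and 9.79 in WT soleus. The arrays of each group agreed within 0.1 and the groups lay far apart, a rise of 1.86-fold (log2 0.89, SE 0.06, limma adjusted p = 5.75e-06). Lrch1, a protein with leucine-rich repeats and a calponin homology domain, read 9.14, 8.93 and 9.08 in KO soleus and 8.29, 8.40 and 8.03 in WT soleus. It rose 1.75-fold (log2 0.81, limma adjusted p = 0.00562), and of the omissions of 1 soleus array that of KO replicate 1 ended the call (0.0583), as did the fit of the 6 soleus arrays alone (0.0523).

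A pair of microRNA genes was among the 15 that rose. MicroRNAs pair with messenger RNAs through their seed, bases 2 to 8, and lower the output of those messages. The array gives 1 value per microRNA gene from total RNA copied with random primers, and it does not separate the arms of the hairpin. The mature arms of both genes, from RefSeq (GRCm38.p6), are shown with the seed in capitals, so that the seeds that these hairpins can deliver are visible.
mmu-miR-181b-5p, chr2:38853845-38853868, plus strand: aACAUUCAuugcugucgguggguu
mmu-miR-181b-2-3p, chr2:38853883-38853904, plus strand: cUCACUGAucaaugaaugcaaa
mmu-miR-30c-5p, chr1:23291714-23291736, plus strand: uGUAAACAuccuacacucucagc
mmu-miR-30c-2-3p, chr1:23291754-23291775, plus strand: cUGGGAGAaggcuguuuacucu
The seed of miR-181b-5p was shared by 4 mature microRNA names of the table and that of miR-30c-5p by 4 as well, the miR-181 and miR-30 families.

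Mir181b-2 read 7.75, 7.63 and 7.20 in KO soleus and 6.46, 6.42 and 6.75 in WT soleus. KO replicate 3 was again the lowest of its group but stayed above every WT array. The gene rose 1.98-fold (log2 0.98, SE 0.13, limma adjusted p = 0.00873; at most 0.0603 without KO replicate 1 or 2 or WT replicate 1). Mir30c-2 read 7.39, 7.31 and 7.42 in KO soleus and 6.68, 6.78 and 6.71 in WT soleus, a rise of 1.57-fold (log2 0.65, SE 0.07, limma adjusted p = 0.000976). Its arrays were tight in both groups. Other genes of these families were looked up after the values were seen. Mir181a-2, which lies beside Mir181b-2, differed by 0.47 (adjusted p = 0.165), Mir30a, which lies beside Mir30c-2, by 0.33 (0.389) and Mir30e by 0.34 (0.138), all in the same direction without passing. Mir181c, Mir181d and Mir30d differed by 0.02, -0.04 and 0.08.

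The remaining genes that rose did so by 0.40 to 0.64 on the log2 scale. Tmem37, which resembles the gamma subunits of calcium channels, read 7.77, 7.63 and 7.84 in KO soleus and 7.17, 7.03 and 7.14 in WT soleus (log2 0.64, limma adjusted p = 0.00985). Ppwd1, a peptidyl-prolyl isomerase of the spliceosome, read 8.58, 8.59 and 8.71 in KO soleus and 7.97, 8.09 and 7.92 in WT soleus, also 0.64 higher in KO (0.0131). The groups of both genes were well apart. The call of Tmem37 ended without KO replicate 1 (0.0787), and that of Ppwd1 without KO replicate 1 or 2 or WT replicate 1 or 3 (at most 0.0839). Phyhip, a partner of phytanoyl-CoA hydroxylase, was 1.51-fold higher, with a KO mean of 7.17 ± 0.104 and a WT mean of 6.57 ± 0.0813 (SD, n = 3 each; limma adjusted p = 0.0418). Plcl1, a catalytically inactive relative of phospholipase C that binds inositol phosphates, and Clmn, a membrane protein with calponin homology domains, were each 1.32-fold higher (limma adjusted p = 0.0418 and 0.0408). The calls of Phyhip and Plcl1 ended without any soleus array except KO replicate 3 (at most 0.192 and 0.174).

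Of the smaller rises, 2 concern fat storage. G0s2, an inhibitor of the triglyceride lipase ATGL, read 8.41, 8.08 and 8.14 in KO soleus and 7.71, 7.67 and 7.83 in WT soleus (1.39-fold, limma adjusted p = 0.0432). Mid1ip1, which promotes the assembly of acetyl-CoA carboxylase and so fatty acid synthesis, read 9.20, 9.40 and 9.25 in KO soleus and 8.72, 8.63 and 8.93 in WT soleus (1.44-fold, limma adjusted p = 0.0432). Its second, dimmer probe set differed by 0.10. Adipocyte markers were uneven among the same arrays: the mean of 6 of them was 9.15, 8.90 and 8.48 in KO soleus and 8.25, 9.21 and 8.19 in WT soleus, and their median difference was 0.33. In WT replicate 2, which was as rich in these markers as the KO arrays, G0s2 and Mid1ip1 were at the lowest level of any soleus array. WT replicates 1 and 3 were poorer in these markers than every KO array, and both genes were also lower there than in every KO array. The groups of all 6 adipocyte markers overlapped, and their part in both rises was not tested. The call of G0s2 held only without KO replicate 3 and that of Mid1ip1 only without WT replicate 3 (otherwise at most 0.214 and 0.208).

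Among 13 tested genes of iron and haem handling 1 was called, against 0.184% of all tested genes. That gene was Abcb10, a transporter of the inner mitochondrial membrane needed for haem synthesis. It read 8.35, 8.39 and 8.45 in KO soleus and 8.06, 7.98 and 7.90 in WT soleus (1.33-fold, limma adjusted p = 0.0460). The omission of any soleus array ended that call (0.0721 to 0.152), as it did for Clmn (0.0503 to 0.187). Tfrc, the transferrin receptor, differed by 0.21 with overlapping groups (adjusted p = 0.641), and the haem enzymes Alas1 and Fech by 0.03 and -0.01. The median of the list was 0.03.

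Among the 7 genes that fell, the clearest was Kif5b, the heavy chain of kinesin-1, the motor that carries mitochondria, nuclei and vesicles along microtubules. It read 10.46, 10.61 and 10.52 in KO soleus and 11.26, 11.13 and 11.10 in WT soleus. All KO arrays lay clearly below the WT arrays, and the level in KO was 0.644 times that in WT (log2 -0.63, SE 0.06, limma adjusted p = 0.000931). Its partners in the motor did not follow to that extent. Klc1 and Klc4, the light chains, differed by -0.06 and -0.03, the adaptors Trak1, Trak2 and Rhot1 by -0.06, -0.05 and -0.07, and Map7 by -0.15 (limma adjusted p = 0.790). The other heavy chains, Kif5a and Kif5c, were below the level of the test.

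Ostn encodes osteocrin, also called musclin, a peptide secreted by muscle that binds the clearance receptor of natriuretic peptides. It read 8.94, 8.86 and 9.42 in KO soleus and 9.85, 9.90 and 10.25 in WT soleus. The groups did not overlap, and KO soleus was at 0.527 times WT soleus (log2 -0.92, SE 0.13, limma adjusted p = 0.0141; at most 0.0908 without KO replicate 1 or 2, and 0.143 with the 6 soleus arrays alone). It was the only called gene of 7 tested muscle peptides and their receptors, against 0.184% of all tested genes called. Npr3, which encodes that clearance receptor, differed by -0.13 with overlapping groups (adjusted p = 0.939), and Il15, Metrnl and Apln by 0.13, 0.01 and 0.00.

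Socs2, which restrains growth hormone signalling and is induced by it through STAT5, read 9.62, 9.50 and 9.40 in KO soleus and 10.36, 10.12 and 9.99 in WT soleus. KO soleus was at 0.637 times WT soleus (log2 -0.65, SE 0.10, limma adjusted p = 0.0228; at most 0.101 without any soleus array except WT replicate 3, and 0.130 with the 6 soleus arrays alone), and its second probe set differed by -0.44. Cish, another inhibitor induced through STAT5, had the widest gap of the 13 genes of growth hormone and insulin-like growth factor signalling but also a wide spread. It read 7.74, 6.995 and 6.68 in KO soleus against 8.12, 8.05 and 8.68 in WT soleus, a difference of -1.15 (SE 0.35, limma adjusted p = 0.339). Igfbp5 and Igfbp3, binding proteins of these factors, differed by -0.34 and 0.31 (0.598 and 0.599). The receptor Ghr, Stat5a, Stat5b and Igf1 differed by -0.01, -0.01, 0.03 and 0.05, and the median of the list was -0.01.

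The other genes that fell were Efr3b, which anchors a phosphatidylinositol kinase to the plasma membrane, Def8, a regulator of lysosome position, Serinc2, of the serine incorporator family, and Wwox, an oxidoreductase with WW domains. Efr3b read 8.47, 8.72 and 8.77 in KO soleus and 9.17, 9.18 and 9.06 in WT soleus (log2 -0.49, limma adjusted p = 0.0408). Def8 read 8.24, 8.28 and 8.32 in KO soleus and 8.75, 8.71 and 8.78 in WT soleus (log2 -0.47, SE 0.05, limma adjusted p = 0.000976). The arrays of Def8 within a group were close beside the gap. Serinc2 and Wwox differed by -0.41 and -0.38 (limma adjusted p = 0.0175 and 0.0150), also without overlap. The calls of Efr3b and Serinc2 ended without any soleus array except KO replicate 3 (at most 0.194 and 0.0943), and that of Wwox without KO replicate 1 or 2 or WT replicate 1 or 2 (at most 0.101).

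**Figure D2:**
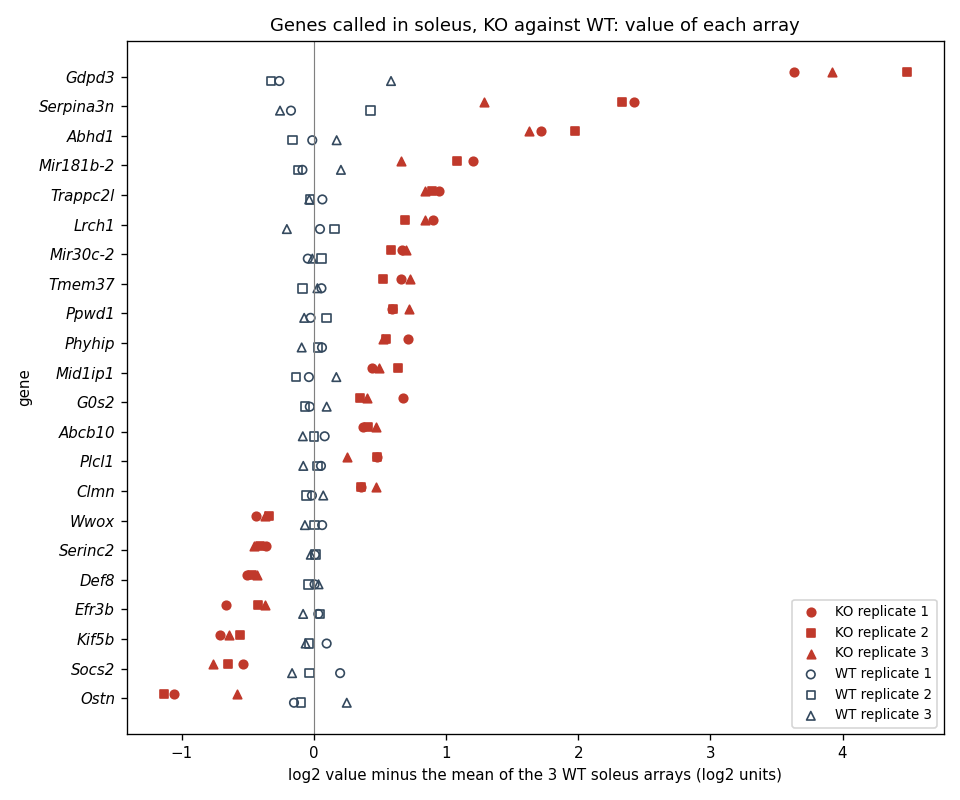
Value of each soleus array for the 22 called genes, as the log2 value minus the mean of the 3 WT soleus arrays (horizontal axis), with KO arrays filled and WT arrays open and the replicate given by the shape. Gdpd3 lies farthest right and Ostn farthest left. KO replicate 3 is the lowest KO array for Serpina3n and Mir181b-2, and in every gene the KO and WT arrays are apart.

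The called genes were also placed along the chromosomes. Egln1 lies on chromosome 8, and 4 of the 22 called genes lie there too: Abcb10, Def8, Trappc2l and Wwox, at 15, 24, 41 and 100 tested genes from Egln1. That is 0.61% of the 656 tested genes of the chromosome, against 0.184% of all tested genes, and the difference was not tested. KO and WT mice differ at the locus itself, so DNA carried along with it cannot be told apart from loss of EglN1 here. None of the 20 tested genes within 10 places of Egln1 was called, and 2 of them had an unadjusted p under 0.05 (Agt, -0.21, and Ttc13, 0.21), or 10% against 7.58% of all tested genes. That window ends before Abcb10, the nearest of the 4 called genes. Chromosome 1 also held 4 called genes (G0s2, Mir30c-2, Plcl1 and Tmem37, 0.59% of 678) and chromosome 12 held 3 (0.716% of 419).

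No listed HIF target passed the test. Of 30 tested targets, 0 were called, 3 had an unadjusted p under 0.05 and all 3 of those were higher in KO, against 4.14% of all tested genes, and the median was 0.03. Adm, which encodes the vasodilator adrenomedullin, had the widest difference. It read 7.20, 7.35 and 7.03 in KO soleus and 6.69, 7.0015 and 6.70 in WT soleus. Its KO arrays lay above its WT arrays by a narrow margin, and the difference of 0.39 did not pass (SE 0.15, limma adjusted p = 0.540). Ndufa4l2, which lowers mitochondrial complex I activity in hypoxia, and Tfrc were named for their unadjusted p and differed by 0.20 and 0.21 (0.552 and 0.641). Slc2a1, the glucose transporter, differed by 0.18 (0.796) and Stc2 by 0.25 (0.750), each with overlapping groups.

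No member of the lists of energy metabolism passed the test. None was called among 15 of glycolysis (median -0.00), 13 of glycogen handling (0.00), 23 of the citric acid cycle (-0.03), 28 of oxidative phosphorylation (-0.01), 20 of fatty acid oxidation (-0.04) or 8 of kynurenine metabolism and transamination (0.02). Without overlap, 5 of 28 genes of oxidative phosphorylation, 4 of 20 of fatty acid oxidation and 3 of 23 of the citric acid cycle lay lower in KO, against 6.1% of all tested genes, and 1, 0 and 0 lay higher (6.63%). The mean level of the 28 genes of oxidative phosphorylation was 12.26, 12.28 and 12.27 in KO soleus and 12.29, 12.29 and 12.30 in WT soleus, lower in every KO array by a small step. Sucla2, a subunit of succinyl-CoA synthetase, differed by -0.24, with 11.59, 11.61 and 11.49 in KO soleus and 11.82, 11.67 and 11.92 in WT soleus (limma adjusted p = 0.316). Dld, a subunit of several dehydrogenase complexes, differed by -0.14 (0.570). In glycolysis the widest gap was that of Pfkp, a phosphofructokinase, at -0.19 (0.836). In oxidative phosphorylation it was that of Uqcrfs1, the iron-sulfur subunit of complex III, at -0.10 (0.739). In glycogen handling it was that of Ppp1r3c, which targets a phosphatase to glycogen, at 0.14 (0.917), in fatty acid oxidation that of Acot2, a mitochondrial thioesterase, at 0.19 (0.874) and in transamination that of Got1 at -0.08 (0.848).

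Several fast-fibre genes were among the most variable genes of the soleus arrays, with the spread in the WT group. Myh4, the myosin of fast glycolytic fibres, read 12.53, 12.48 and 12.73 in KO soleus and 10.90, 13.31 and 8.99 in WT soleus, against 13.98 to 14.12 in quadriceps. The KO arrays agreed within 0.3, while the WT arrays spanned over 4 log2 units on both sides of them. The SD was 0.132 in KO and 2.16 in WT (n = 3 each), and the difference of 1.51 did not pass (SE 0.72, limma adjusted p = 0.684). Over the alternative settings that difference ran from 0.11 to 2.64, and it passed in at least 1 of them. Actn3, the alpha-actinin of fast fibres, repeated the order with 11.95, 11.60 and 11.74 in KO soleus and 11.36, 12.42 and 10.17 in WT soleus. Pvalb, the calcium buffer parvalbumin, read 12.76, 12.57 and 12.57 in KO soleus and 12.25, 13.14 and 11.51 in WT soleus. In these genes WT replicate 2 was the highest soleus array and WT replicate 3 the lowest, and the KO arrays lay between them.

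The same order of the WT arrays, replicate 2 above 1 above 3, held for 11 of 16 fast-fibre genes. They were Myh1, Myh4, Myl1, Mylpf, Tnnc2, Tnni2, Atp2a1, Pvalb, Actn3, Mybpc2 and Myoz1. All were read in the same 3 WT arrays and are not separate observations. The share of all tested genes with this order was not counted. Mybpc2, the fast myosin-binding protein C, read 11.57, 11.28 and 11.51 in KO soleus and 10.94, 12.09 and 10.30 in WT soleus. For genes near the top of the signal range the steps were small: Atp2a1, the fast calcium pump, read 14.07, 14.04 and 14.09 in KO soleus and 14.03, 14.11 and 14.03 in WT soleus. Mstn, which encodes the growth inhibitor myostatin, followed it as well, with 7.29, 7.33 and 7.61 in KO soleus and 6.55, 8.08 and 5.91 in WT soleus, against 10.66 to 11.17 in quadriceps. The mean of the fast genes minus that of the slow genes gives 1 level per array. It was 0.53, 0.41 and 0.39 in KO soleus and 0.14, 0.58 and -0.13 in WT soleus, against 4.3 to 5.6 in quadriceps.

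**Figure D3:**
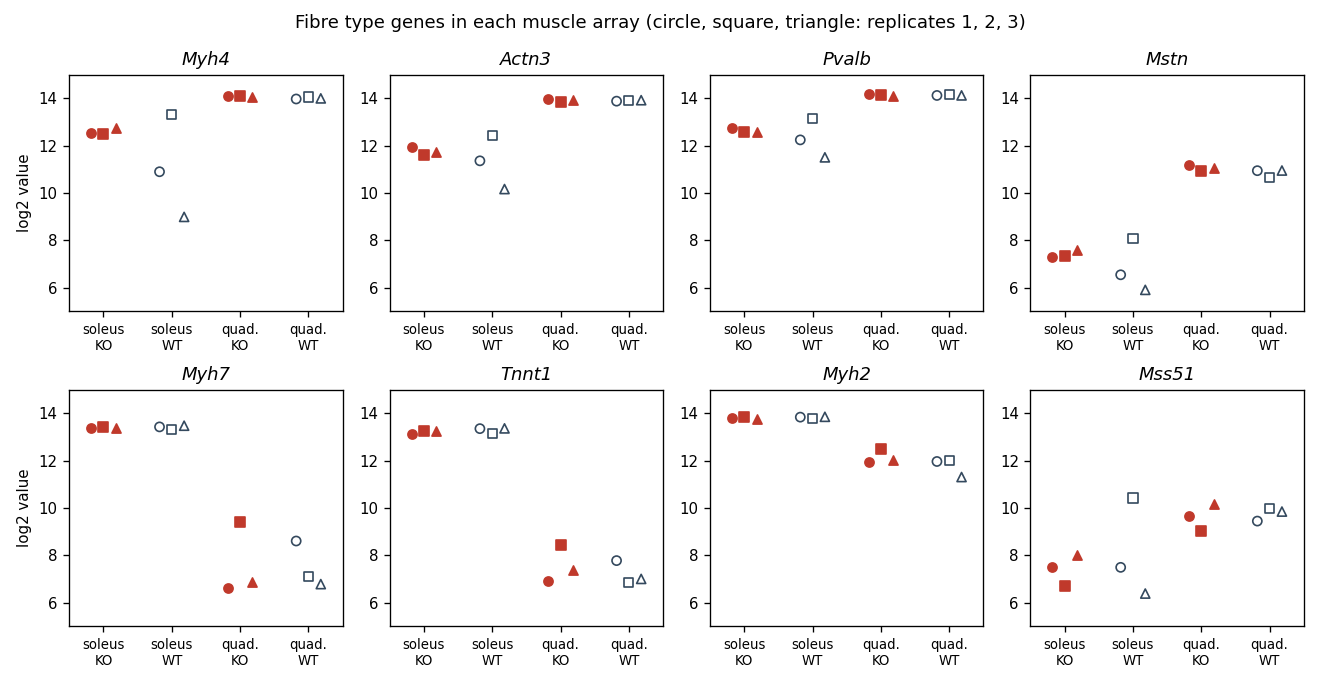
Log2 value (vertical axis) of 8 genes in each muscle array, KO arrays filled and WT arrays open, with replicates 1, 2 and 3 as circle, square and triangle. For Myh4, Actn3, Pvalb and Mstn the 3 KO soleus arrays lie between the WT soleus arrays, with WT replicate 2 on top. Myh7 and Tnnt1 are level across the soleus arrays and uneven in quadriceps.

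Most slow-fibre genes differed little between the groups, many of them near the top of the signal range. The mean level of the 16 slow genes was 12.42, 12.46 and 12.51 in KO soleus and 12.57, 12.52 and 12.55 in WT soleus, lower in every KO array by a narrow margin. Myh7 differed by -0.01, and Myl2, Tnnt1, Tnni1 and Tnnc1, which encode the slow light chain and troponins, by -0.06, -0.08, -0.13 and -0.03. Of 16 slow genes 0 were called, 4 had groups that did not overlap with KO lower and 0 with KO higher (backgrounds 6.1% and 6.63%), and the median was -0.04. Casq2, the slow isoform of the calcium buffer calsequestrin, had the widest gap. It read 10.91, 11.12 and 11.54 in KO soleus and 11.93, 11.75 and 11.70 in WT soleus. The groups were apart, and the difference of -0.60 did not pass (SE 0.21, limma adjusted p = 0.454). Myh7 varied widely in quadriceps, and the shared estimate of spread takes that in: the SE of Myh7 was 0.61 with 12 arrays and 0.064 with the 6 soleus arrays alone. In that narrower fit 0 of 16 slow genes passed either, and Casq2 and Csrp3 had an unadjusted p under 0.05 (limma adjusted p = 0.360 for Casq2). The fast list had 0 of 16 called in both fits, with a median of 0.01 and Tnnt3, a fast troponin, as the only gene whose groups did not overlap (-0.04).

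The called genes were then set against the fibre level. With the fast minus slow level of each array as a covariate in the 12-array fit, 16 genes passed, all of them among the 22. Abcb10, Clmn, Efr3b, G0s2, Phyhip and Plcl1 missed the threshold there (limma adjusted p = 0.0712 to 0.0915), and their differences kept their sign. With the covariate in the 6 soleus arrays alone, only Abhd1, Gdpd3 and Trappc2l passed. Without WT replicates 2 and 3, the ends of the fibre range, 6 genes passed, and 4 of them (Abhd1, Gdpd3, Kif5b and Trappc2l) were among the 22; the lone WT array is then assumed to vary like the other groups. All 22 kept their sign in both covariate fits. The fitted log2 difference with the covariate was 0.911 to 1.08 times the reported one in the 12 arrays and 0.848 to 1.20 times in the 6 soleus arrays. Serpina3n, for example, differed by 2.07 and 1.72 in these fits in place of 2.01, and Kif5b by -0.65 and -0.63 in place of -0.63. The 12-array fit uses 1 slope for both muscles, and the level ranged wider in quadriceps (4.3 to 5.6) than in soleus (-0.13 to 0.58). Myh4 still differed by 1.21 in that fit (1.51 as reported), and Myh7 moved from -0.01 to 0.46. That fit thus took out little of the Myh4 difference, and its ratios cannot show the part of fibre spread in the calls. With the covariate in the 6 soleus arrays alone, Myh4 differed by 0.11, so most of its difference was taken out there. Myh4 is itself 1 of the 16 fast genes behind the level. The part of fibre spread in the calls was not tested further.

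No listed regulator of fibre type passed the test. Of 15 tested genes 0 were called, 3 lay lower in KO without overlap and 1 higher (backgrounds 6.1% and 6.63%), and the median was -0.02. Ppargc1a, the coactivator that drives oxidative fibres, read 11.78, 11.15 and 11.48 in KO soleus and 11.76, 11.60 and 11.57 in WT soleus, an overlap with a difference of -0.17 (limma adjusted p = 0.872). Esrra, its partner receptor, differed by -0.15 without overlap (0.477). Myogenic and satellite cell genes (11 tested, median 0.01) and genes of denervation and the end plate (12 tested, median -0.01) had no called member either, with Myh3, the embryonic myosin, at -0.30 (0.736) and Chrna1, an acetylcholine receptor subunit, at -0.27 (0.736) as their widest.

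No listed gene of muscle wasting passed the test. Trim63 and Fbxo32, the ubiquitin ligases MuRF1 and atrogin-1 that mark muscle protein for breakdown, were lower in KO without overlap. Trim63 read 10.19, 10.13 and 10.48 in KO soleus and 10.70, 10.80 and 10.62 in WT soleus. Fbxo32 read 11.36, 11.35 and 11.32 in KO soleus and 11.64, 11.77 and 11.76 in WT soleus. The differences of -0.44 and -0.38 did not pass (limma adjusted p = 0.489 and 0.531), and both were named for their unadjusted p. The metallothionein Mt1 was at 0.39 (0.706) and Foxo1, a transcription factor that induces the ligases, at 0.22 (0.872). The median of the 17 genes was 0.04.

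No circadian clock gene passed the test in soleus, and many of them lay on one side. The labels used here do not state the hour of harvest, so a difference in that hour cannot be told apart from genotype. BMAL1, encoded by Arntl, and CLOCK drive the clock, and the period and cryptochrome proteins and the D-box factors Dbp, Tef and Hlf follow as repressors and outputs. Arntl read 7.35, 7.03 and 7.62 in KO soleus and 8.37, 7.74 and 8.29 in WT soleus. Its KO arrays lay below its WT arrays, with a difference of -0.80 (SE 0.18, limma adjusted p = 0.131), and Clock differed by -0.24 (0.461). In the quadriceps arrays, which carry the same label numbers, Arntl was called at -0.95 (limma adjusted p = 0.0374). Clock, at -0.29, was not called there (0.164). Dbp read 10.93, 10.95 and 10.69 in KO soleus and 10.29, 10.65 and 10.42 in WT soleus. Its margin between the groups was narrow, with a difference of 0.40 (SE 0.09, limma adjusted p = 0.143). Arntl and Dbp each passed in 1 of 21 alternative settings. Of 14 tested repressors and outputs, 6 lay higher in KO without overlap, against 6.63% of all tested genes, 0 lay lower without overlap and 0 were called. The 6 were Per3, Cry1, Nr1d2, Dbp, Tef and Hlf, with differences of 0.32, 0.28, 0.20, 0.40, 0.23 and 0.30, and the same 6 had an unadjusted p under 0.05.

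The rest of the clock was mixed. Per2 and Cry2 differed by 0.25 and 0.21 with overlap, Ciart and Bhlhe41 by 0.29 and 0.21, while Per1, Nr1d1, Nfil3 and Bhlhe40 were at -0.14, -0.05, -0.07 and -0.08. The median of the repressors and outputs was 0.22 and that of the 3 tested activators -0.24. BMAL1 and CLOCK bind the E-box CACGTG, which contains a HIF core. Windows of Tef and Cry1 are shown because they hold an E-box, in capitals, and because both genes lay higher in every KO array; they are from RefSeq (GRCm38.p6), 250 bases before the start, 5′ to 3′ on the strand of the gene.
Tef, chr15:81802423-81802672, plus strand: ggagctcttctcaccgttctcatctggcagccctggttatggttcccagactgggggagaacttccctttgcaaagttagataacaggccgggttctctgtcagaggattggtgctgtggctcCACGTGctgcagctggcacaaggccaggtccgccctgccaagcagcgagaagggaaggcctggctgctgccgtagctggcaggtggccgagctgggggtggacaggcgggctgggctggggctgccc
Cry1, chr10:85185055-85185304, minus strand: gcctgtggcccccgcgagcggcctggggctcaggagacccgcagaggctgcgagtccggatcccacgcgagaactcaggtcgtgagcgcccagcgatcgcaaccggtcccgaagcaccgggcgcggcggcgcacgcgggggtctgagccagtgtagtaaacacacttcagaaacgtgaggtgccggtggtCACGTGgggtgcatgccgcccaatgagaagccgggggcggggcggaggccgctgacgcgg
An E-box was found in 5 of 12 repressors and outputs with a window (Bhlhe41, Ciart, Cry1, Per1 and Tef), against 9.96% of tested genes, and in 0 of 3 activators. Of those 5, Cry1 and Tef had groups that did not overlap and the others overlapped.

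**Figure D4:**
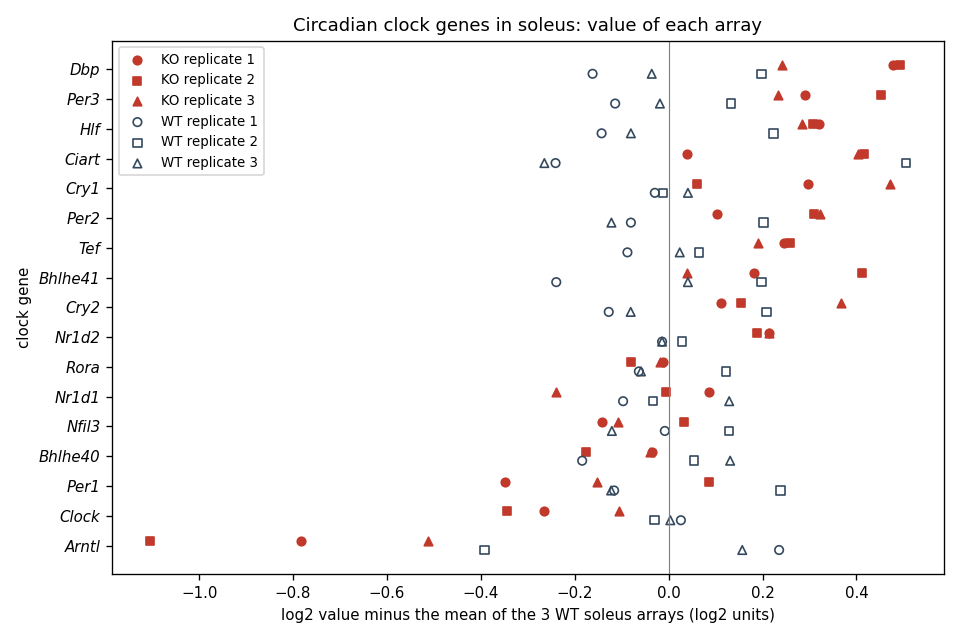
Value of each soleus array for 17 clock genes, as the log2 value minus the mean of the 3 WT soleus arrays (horizontal axis), with KO arrays filled and WT arrays open and the replicate given by the shape. Arntl and Clock lie left of the WT arrays in all KO arrays, and Dbp, Per3, Hlf, Cry1, Tef and Nr1d2 lie right of them; for most of these outputs WT replicate 2 is the nearest WT array.

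No gene of the immediate early, heat shock and interferon lists passed the test. Fos, an immediate early factor, read 6.63, 6.97 and 6.92 in KO soleus and 7.62, 8.40 and 7.08 in WT soleus. Nr4a1, an orphan nuclear receptor induced by contraction, read 10.28, 10.17 and 10.35 in KO soleus and 10.63, 10.89 and 10.70 in WT soleus. The KO arrays of both genes lay below the WT arrays, and the differences were -0.86 and -0.47 (limma adjusted p = 0.280 and 0.0735). Of 11 immediate early genes 0 were called, 4 were lower without overlap (background 6.1%), and Myc, with overlap, was at 0.36 (0.574). Of 11 heat shock genes 0 were called. Hsph1, a chaperone of the HSP110 class, differed by -0.28 (0.107) and Hsp90aa1 by -0.24 (0.320). Of 9 interferon genes 0 were called, and Tnfsf10, which encodes the death ligand TRAIL, was closest, with 7.70, 7.70 and 7.53 in KO soleus, 7.06, 6.99 and 7.21 in WT soleus and a difference of 0.55 (limma adjusted p = 0.0701).

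Markers of other cells were read for each array. The median difference was 0.10 over 12 endothelial genes, 0.02 over 9 of smooth muscle and pericytes, -0.01 over 10 of fibroblasts and matrix, 0.14 over 8 of tendon, -0.03 over 9 of macrophages and leukocytes, 0.33 over 6 of adipocytes, -0.00 over 2 of red cells, -0.01 over 3 of nerve and 0.04 over 3 sex-linked genes, and none of these genes was called. Cldn5, a tight junction protein of endothelium, differed by 0.24 without overlap (limma adjusted p = 0.399), and Kcnj8, a potassium channel of pericytes, by 0.21 (0.466). The mean tendon level was 9.30, 9.41 and 8.46 in KO soleus and 8.73, 9.06 and 9.07 in WT soleus, so that KO replicate 3 was lowest there too, led by Chad, a matrix protein of tendon, at 9.80, 9.95 and 8.58 in KO soleus. Endothelial levels ran from 9.13 to 9.27 in KO soleus and from 9.02 to 9.26 in WT soleus.

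Few genes passed a test of whether their change differed between soleus and quadriceps. Of the 22 genes, 21 had the same sign in quadriceps and 15 were also called there, where 0.794% of genes were called. The share of all tested genes with the same sign in both muscles was not counted. The muscles share their mice if the label numbers mark animals. The change itself differed between the muscles, by a test of the interaction, for 1 of 11963 genes (0.00836%; 781 at an unadjusted p under 0.05, 6.53%), and that gene was Kif5b. In quadriceps it read 10.90, 10.89 and 10.92 in KO and 10.79, 10.95 and 10.93 in WT, a difference of 0.02 with groups that overlapped. The soleus change less the quadriceps change was -0.65 (limma adjusted p = 0.0427), and it passed in 7 of 19 alternative settings (0.00783 to 0.634). Lrch1 differed by 0.81 in soleus and 0.24 in quadriceps, and Abhd1 by 1.77 and 1.17, but their interactions did not pass (0.355 and 0.220). Ostn, at -0.92 in soleus and -0.45 in quadriceps, did not pass either (0.657). Its level in quadriceps was 6.61 in KO and 7.07 in WT on average. The SE of the interaction is wider than that of either change (0.13 against 0.10 for Lrch1). A gene that did not pass need not have changed alike in both muscles.

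Next by p in the interaction, and not called, were Polk, a translesion DNA polymerase at -0.13 in soleus and -0.99 in quadriceps (limma adjusted p = 0.101), Tnfsf10 at 0.55 and -0.27 (0.179), 1110002L01Rik at 0.37 and -0.36 (0.199) and Rspo3, a potentiator of WNT signalling, at -0.15 and 0.49 (0.199). Egln1 itself differed by -0.20 in soleus and -0.14 in quadriceps, with an interaction of -0.06.

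The widest differences were not always the called ones. Of the 10 widest by fitted difference that were not called, Myh4, BC023105, Rnu12 and Rhobtb3 had overlapping groups. Lrmda, linked to melanocyte differentiation, read 6.71, 6.73 and 7.50 in KO soleus and 5.83, 6.17 and 5.89 in WT soleus. Its WT arrays were all below 6.54, so its log2 difference is given as 0.44 or more (limma adjusted p = 0.131), a bound that 61 other uncalled genes exceeded. Inmt, a methyltransferase, read 9.91, 9.84 and 9.64 in KO soleus and 8.53, 9.58 and 8.60 in WT soleus, and Unc5a, a netrin receptor, 6.71, 7.20 and 6.64 in KO soleus and 7.78, 7.82 and 7.60 in WT soleus. The groups were apart, narrowly for Inmt, and the differences were 0.89 and -0.88 (limma adjusted p = 0.452 and 0.177). Trim13, a ubiquitin ligase of the endoplasmic reticulum, was low in both arrays of 1 label number. KO replicate 3 read 8.04 against 9.67 and 9.72 in the other KO soleus arrays and 9.96, 9.84 and 10.17 in WT soleus, and the quadriceps array of the same number read 6.94.

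A few genes varied widely within the groups. The 10 genes with the largest pooled SD were Mss51, Myh4, Snord118, Rnu12, Snora69, Nnat, Angptl7, Actn3, Mstn and Gadd45g. WT replicate 2 was the highest WT array for 9 of them, all but Rnu12. Mss51, a mitochondrial protein of fast muscle, read 7.52, 6.69 and 8.03 in KO soleus and 7.49, 10.42 and 6.38 in WT soleus. Over all tested genes the WT arrays were not the more variable ones: the SD was larger in WT for 43.4%, and the median SD was 0.0842 in KO and 0.0755 in WT. Within the lists it was larger in WT for 8 of 16 fast genes and for 9 of 16 slow genes.

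**Figure D5:**
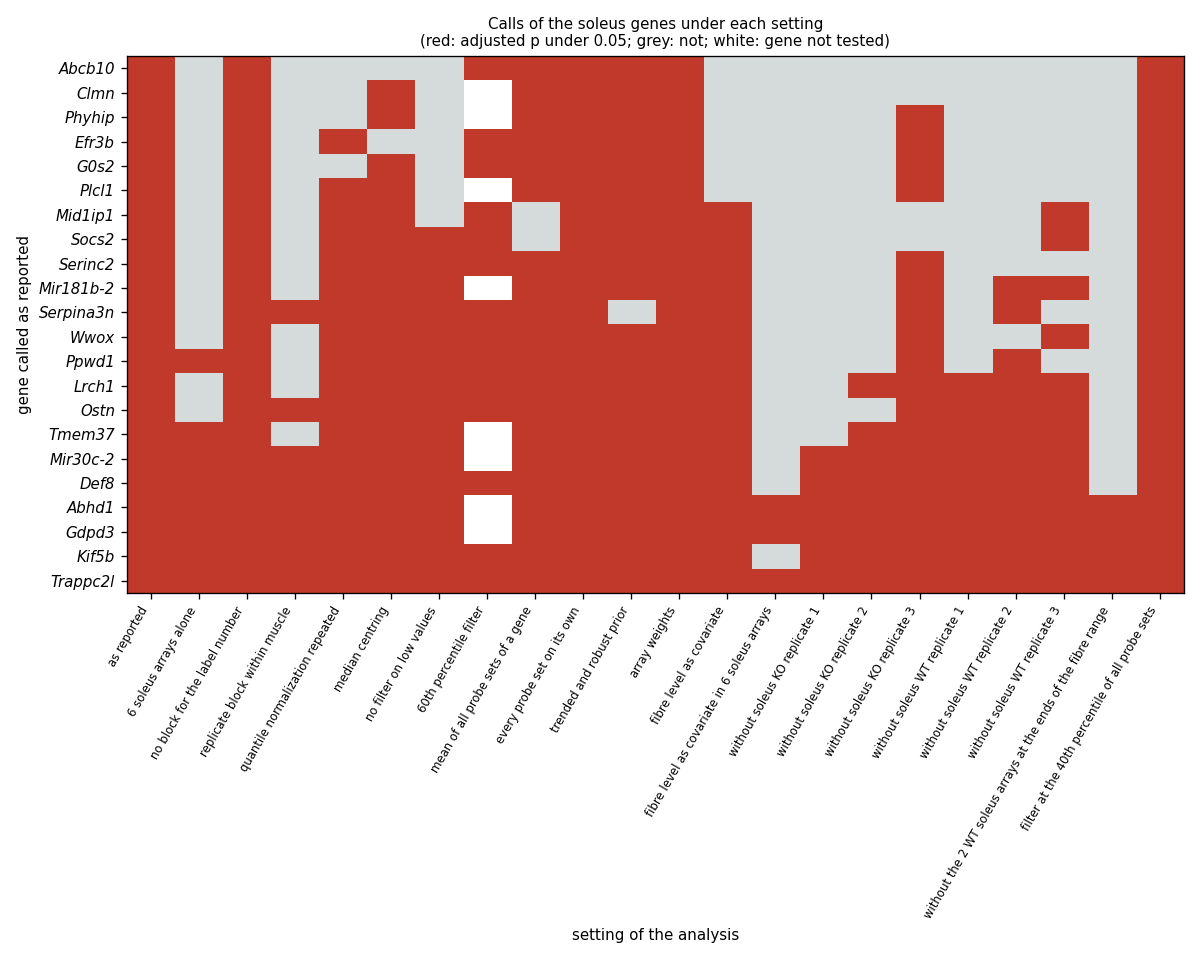
Calls of the 22 genes (vertical axis) as reported and under 21 other settings (horizontal axis), red where the limma adjusted p was under 0.05, grey where it was not and white where the gene was not tested. Trappc2l was called in every setting and Abhd1 and Gdpd3 in every setting that tested them, while the 7 genes at the top were called in at most 10 of the other settings.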

How the data were processed

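The deposited values were log2 signals that the authors made with RMA (robust multi-array average, which corrects background, normalizes by quantiles and sums up the probes of a transcript), per the submitters' processing notes. Which version was used, and which arrays were normalized as 1 set, is not given in the sources used here. Of 35556 probe sets, 21789 named 1 gene, 1621 several and 12146 none in the platform annotation. For each of 19938 genes the probe set with the highest mean over the 12 muscle arrays was taken, and 11963 genes with a mean of at least 6.54, the 40th percentile of all genes, were tested. Every deposited column belonged to a sample.

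All 12 muscle arrays entered 1 fit (limma 3.58.1 in R 4.3.3) with 4 group means and the label number shared by 1 soleus and 1 quadriceps array as a random block (consensus correlation 0.177). The number is read as the animal, which the labels do not state. Contrasts were KO minus WT in soleus and its difference from quadriceps. The threshold was a Benjamini-Hochberg adjusted p of 0.05 over all tested genes. With 3 against 3 arrays the smallest exact permutation p is 0.1, so the tests rest on limma's pooled variance, and the number of arrays limits precision. Nothing says that replicates are separate animals beyond those numbers and the label of biological replicate.

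The gene lists (33, with 450 genes, 383 of them tested), the rule for named genes and the comparison were chosen with earlier results of these data known. The rule takes all called genes, the EglN and HIF genes, fibre and clock genes, the called or widest member of each list, the 10 widest by fitted difference that were not called, the 10 with the largest SD and the 5 smallest interaction p-values. Other genes were named after their values were seen. Promoters and microRNAs were matched by symbol to RefSeq tables of GRCm38.p6, and the motif cores searched, ACGTG and GCGTG on both strands, overlap with the E-box CACGTG. Alternatives changed the arrays fitted, the block, normalization, filter, probe set rule, variance prior, array weights and a fibre covariate, and left out each soleus array.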

Additional observations from a re-analysis of the deposited data

Results flagged for a closer look

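Kif5b, the heavy chain of kinesin-1, stood out because its KO minus WT change differed between the muscles in a test of that difference. The soleus change less the quadriceps change was -0.65 on the log2 scale (SE 0.08, limma adjusted p = 0.0427), with -0.63 in soleus and 0.02 in quadriceps. All 3 KO soleus arrays lay below all 3 WT soleus arrays, while the quadriceps groups overlapped. The difference kept its sign in 19 alternative settings, between -0.74 and -0.60, and its adjusted p ran from 0.00783 to 0.634, under the threshold in 7 of them.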

How the results depend on the processing

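The 22 called genes (15 higher, 7 lower) and the 1 called interaction depended on the setting, and the cause was not tested. With the 6 soleus arrays alone, 8 genes were called (6 higher, 2 lower). With the title's replicate number as a block within each muscle, 9 were called (5 higher, 4 lower); same-numbered KO and WT soleus arrays did not deviate together (r = -0.0032, 0.0191 and -0.129), so they share only a number. The label number joined soleus and quadriceps arrays at r = 0.002, 0.386 and 0.367 in KO and 0.211, 0.216 and 0.0902 in WT. The filter at the 60th percentile, which tests fewer genes, gave 14 (7 higher), a trended and robust prior 33 (13 lower) and array weights 67 (39 higher, 28 lower). The fibre level as a covariate in the 6 soleus arrays left 3 higher and 0 lower. Leaving out 1 soleus array gave 6 to 39 genes, 4 to 22 higher and 2 to 17 lower, and 0 to 3 interactions. Without the 2 WT arrays at the ends of the fibre range, an alternative chosen after seeing the data, 6 genes were called (4 higher, 2 lower). The interaction count was 2 with the trended prior and with array weights. It was 0 with no block for the label number, with the replicate block, median centring, no filter, the fibre covariate or the filter taken over probe sets (chosen after seeing the data), where 526 to 1138 genes had an unadjusted p under 0.05 in limma. Repeated quantile normalization (20 called), the mean of all probe sets (21) and no filter (18) stayed within 1.5 times of 22. No called gene changed sign, and Egln1 ran from -0.22 to -0.16 without being called. Of 103 named genes tested, 31 uncalled ones changed sign in some setting. Another 7 genes, some of them among those 31, were not called as reported but passed in at least 1 setting. They were Arntl, BC023105, Dbp, Fos, Mstn, Myh4 and Tnfsf10.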
